A study of Rattus norvegicus with 18 samples.

Results

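The testis of Wistar rats held transcripts of a small set of olfactory receptor genes, and 8 of them are described here: *Or4e1*, *Or8s10*, *Or8b3*, *Or6s1*, *Or5h18*, *Or1f20*, *Or2y14* and *Or10al5b*. They were selected on their measured FPKM and named by symbol. Of 7016 transcripts in the RNA table, 10 carry an olfactory receptor symbol, and the 8 are those with at least 3 of the 6 libraries at 1 FPKM or above. FPKM, fragments per kilobase of transcript and per fixed number of mapped fragments, adjusts for length and depth but not for differences in composition between libraries. The FPKM of a library summed to 130081 in control library 1 and to 150040 in CSR library 2. Because the members were selected on these values, their levels are a description and not a test. Testes were compared between a group under chronic sleep restriction (CSR) and a control group, with 3 RNA libraries each, from rats of the same strain and an age of 8 weeks. The labels do not give the schedule of restriction, nor do they tie each library to a separate rat. The codes of control libraries 1 and 2 differ only in the last digit, and whether these libraries share a source is not stated. The p-values below thus measure only how these libraries differ among themselves, which may be technical. The CSR and control groups also have 6 methylation libraries each, which were not used here.

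Olfactory receptors are membrane receptors coupled to G proteins and form the largest gene family of the rodent genome. In the nose each sensory neuron uses one receptor gene, and odorant binding is passed through the G protein subunit Gnal and the adenylyl cyclase Adcy3 to a cyclic nucleotide-gated channel. A minority of these genes is also transcribed in male germ cells, where receptors of the family have been studied as sensors of sperm. Most receptor genes have their whole coding sequence in a single exon and lie in clusters of close copies, which bears on how well reads can be assigned to any one of them.

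That closeness differed widely among the members, and the coding starts below show it, taken from RefSeq (build GRCr8; coordinates of that build, whereas the authors' values rest on rn6). A sequence window at the start of the gene model was found for 7 of the 8 members, all but *Or8b3*. Each line gives the first 50 coding bases, 5′ to 3′ on the gene's strand. Capitals mark the bases at which a receptor and its closest relative differ; the *Or6s1* line is set against *Or2g1*, which is not shown. The first 3 pairs are shown because they differ at few of these bases, and *Or6s1* because no other receptor came near it over them. The bases were compared position by position from the start codon. A relative with a shifted start would look distant, and the rest of the coding sequence was not compared.
Or4e1, chr15:27676998-27677047, minus strand: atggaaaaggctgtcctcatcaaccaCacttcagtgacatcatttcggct
Or4e5, chr15:27701994-27702043, minus strand: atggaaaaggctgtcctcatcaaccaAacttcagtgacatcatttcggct
Or1f20, chr10:12633454-12633503, minus strand: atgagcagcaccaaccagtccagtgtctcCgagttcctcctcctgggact
Or1f21, chr10:12551547-12551596, minus strand: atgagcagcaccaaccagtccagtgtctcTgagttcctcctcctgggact
Or8s10, chr7:131448355-131448404, plus strand: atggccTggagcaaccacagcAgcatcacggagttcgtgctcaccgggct
Or8s8, chr7:131470811-131470860, plus strand: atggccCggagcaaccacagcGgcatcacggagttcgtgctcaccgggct
Or6s1, chr15:26766008-26766057, minus strand: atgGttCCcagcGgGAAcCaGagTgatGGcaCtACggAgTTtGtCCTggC

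Among 1052 other receptor windows, the closest to *Or4e1* was *Or4e5*, with 1 mismatch over 50 bases, and the closest to *Or1f20* was *Or1f21*, also with 1. *Or1f20* had 6 receptors within 2 mismatches and 15 within 5. *Or8s10* differed from *Or8s8* at 2 bases, *Or10al5b* from *Or10al7* at 4 and *Or5h18* from *Or5h26b* at 6. At the other end, over the same 50 bases, *Or2y14* had 20 mismatches to its closest receptor and *Or6s1* had 23. Over all 1053 receptor windows the median distance to the closest receptor was 6, and 29.3% lay within 2 mismatches of another. None of these 7 closest relatives had a row in the RNA table, beside 0.816% of 1226 protein-coding receptor genes with a curated transcript. How the authors' counting shared reads between such copies is not given in the sources used here, so the values of *Or4e1*, *Or1f20* and *Or8s10* are uncertain in this respect.

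**Figure D1:**
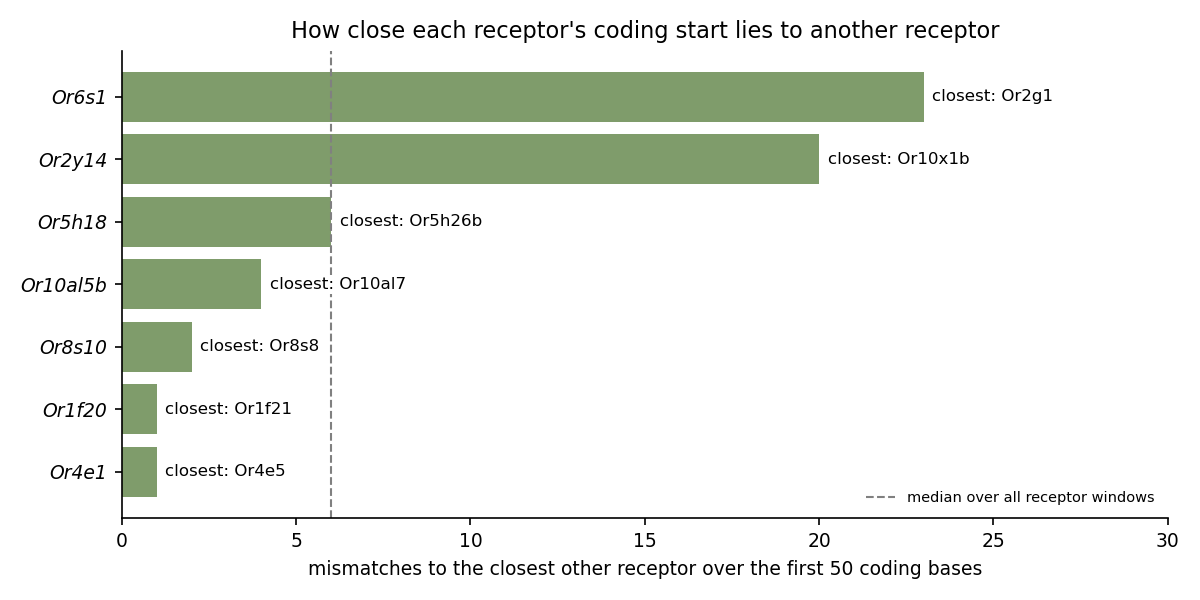
Horizontal bars give the number of mismatches between the first 50 coding bases of each member and the closest other rat receptor, and the dashed line marks the median over all receptor windows. *Or4e1* and *Or1f20* stand at 1 mismatch, *Or6s1* at 23 and *Or2y14* at 20.

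The members fell into a higher set of 3 and a lower set of 5. *Or6s1* (NM_001000503) read 4.08, 3.30 and 3.72 FPKM in CSR libraries 1 to 3 and 3.55, 2.81 and 2.47 in control libraries 1 to 3. *Or8b3* (NM_001000447) read 2.73, 3.49 and 3.14 FPKM under CSR against 3.40, 2.92 and 4.17 in the controls. Both were above 2 FPKM in every library, and for both the groups overlapped. *Or4e1* (NM_001000101) read 3.69, 3.31 and 2.77 FPKM under CSR against 0.477, 3.04 and 2.54 in the controls. Control library 1 was thus the only library in which *Or4e1* was low, by 7.73 times against its highest library, and the other 5 libraries lay between 2.54 and 3.69 FPKM.

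The other 5 stayed under 3 FPKM in every library. *Or10al5b* (NM_001001114) read 0.890, 1.12 and 1.48 FPKM under CSR against 2.37, 2.04 and 1.10 in the controls. *Or5h18* (NM_001000727) read 0.393, 0.662 and 1.29 FPKM under CSR against 2.58, 1.08 and 0.905 in the controls. For both, control library 1 was the highest library and CSR library 1 the lowest, and the groups overlapped, with control library 3 below CSR library 3. *Or2y14* (NM_001001094) read 0.255, 1.04 and 1.44 FPKM under CSR against 1.19, 1.38 and 1.24 in the controls, so that CSR library 1 stood below the rest.

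The last members were each low in single libraries of different groups. *Or1f20* (NM_001000980) read 1.59, 0.214 and 1.14 FPKM under CSR against 0.122, 1.31 and 1.18 in the controls. It was thus low in CSR library 2 and control library 1 and above 1 FPKM in the other 4. *Or8s10* (NM_001000424) read 1.16, 0.226 and 0.687 FPKM under CSR against 0.689, 1.33 and 1.18 in the controls, lowest in CSR library 2. No member was listed at 0 in any library, which the choice on level favours. Over the whole table, zeros were more frequent under CSR, at 14.3% to 20.2% of transcripts per library, than in the controls, at 3.92% to 6.03%.

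**Figure D2:**
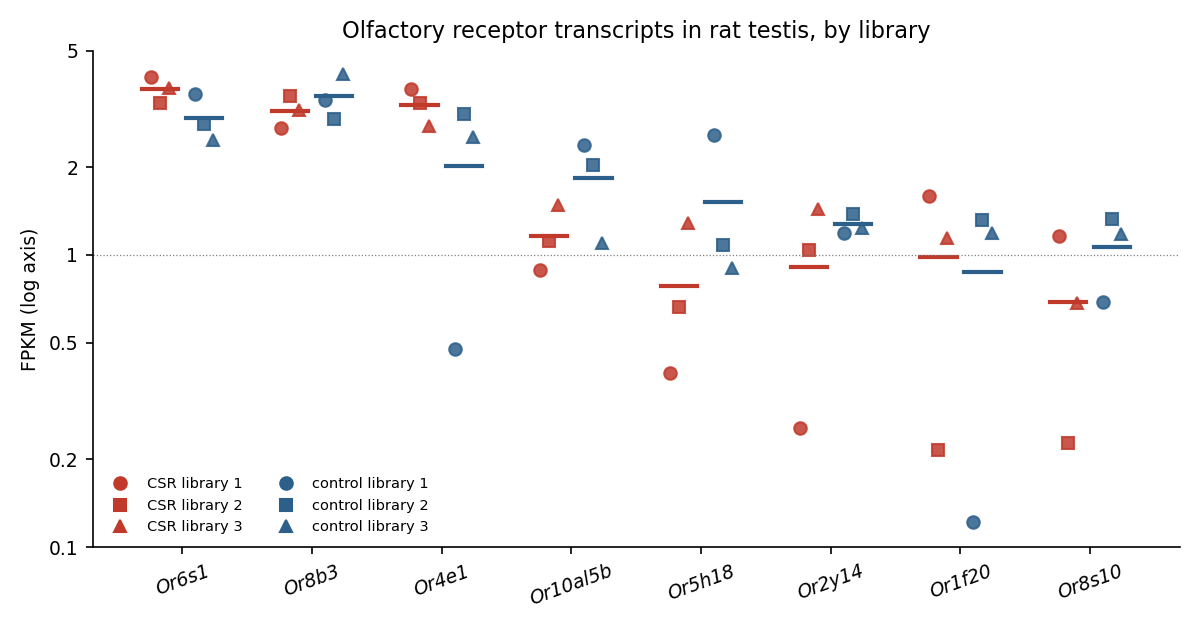
FPKM on a log axis for each member, ordered by mean level; symbols are single libraries, red for CSR and blue for control, the short lines are group means over 3 libraries, and the dotted line marks 1 FPKM. *Or6s1* and *Or8b3* are tight in all 6 libraries, while *Or4e1* and *Or1f20* each have a control library 1 value far below the rest.

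Ordered by the mean over 6 libraries, the levels were 3.32 ± 0.594 FPKM for *Or6s1*, 3.31 ± 0.510 for *Or8b3* and 2.64 ± 1.13 for *Or4e1* (SD, n = 6). *Or10al5b* followed with 1.50 ± 0.587 FPKM, *Or5h18* with 1.15 ± 0.766 and *Or2y14* with 1.09 ± 0.433. *Or1f20* had 0.927 ± 0.609 FPKM and *Or8s10* 0.878 ± 0.416. Only the step from *Or4e1* to *Or10al5b*, of 1.14 FPKM, was larger than the SD of either neighbour, and then barely, against an SD of 1.13. All other neighbours in this order differed by less than the larger of their SDs, and *Or6s1* was above *Or8b3* in 3 of 6 libraries.

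At the edge of the choice, *Or8s10* and *Or5h18* entered with 3 libraries at 1 FPKM or more. The 2 receptor rows that did not enter were *Or8c18*, with 2 such libraries, and *Or10d3*, with 0. *Or8c18* (NM_001000442) read 0, 0 and 0.988 FPKM under CSR against 0, 1.06 and 1.65 in the controls. *Or10d3* (NM_001000465) read 0.194, 0.367 and 0.909 FPKM under CSR against 0.734, 0.216 and 0.0177 in the controls. *Or8c18* is said only to be listed at 0 in 3 libraries, because a value of 0 may stand for a failed estimate.

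Within the table these are low transcripts. The means of the members lay between the 18.9th and the 46.0th percentile of all 7016 rows, whose median was 3.69 to 3.97 FPKM in a single library. Among the 5657 transcripts that reached 1 FPKM in at least 3 libraries, *Or6s1* stood at the 33.5th percentile and *Or8s10* at the 2.28th. In the RefSeq gene table, 1226 protein-coding olfactory receptor genes have a curated transcript, and 10 of them (0.816%) had a row here, against 35.6% of the 18539 protein-coding genes with such a transcript. The rule by which the authors selected rows is not given in the sources used here; the lowest maximum of any row was 0.647 FPKM.

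**Figure D3:**
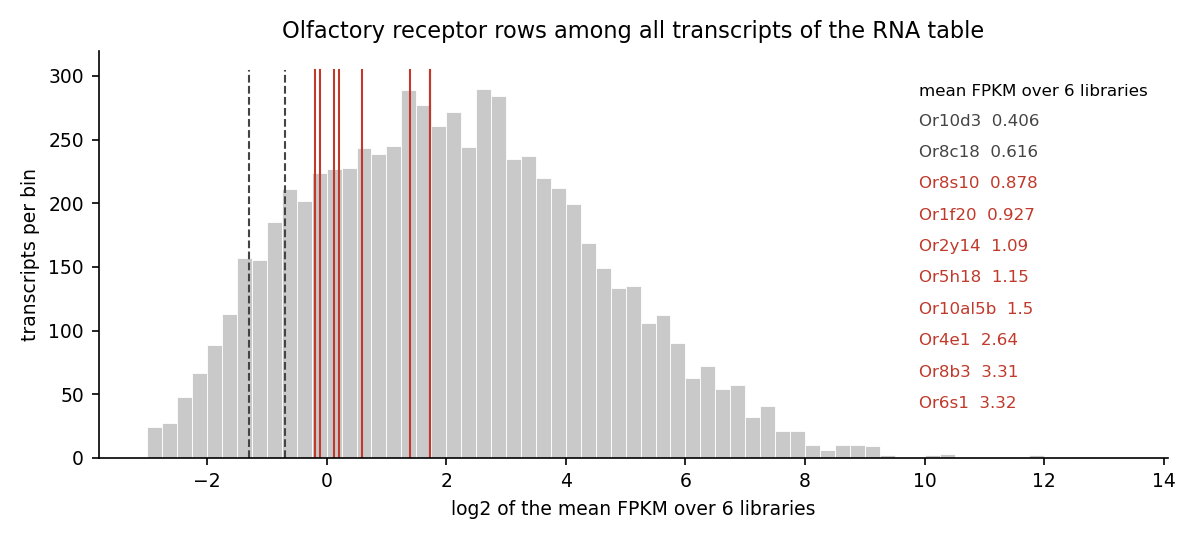
Histogram of the mean FPKM over 6 libraries of all 7016 transcripts, on a log2 axis, with the 8 members as red lines and the 2 other receptor rows as dashed lines. All 10 lie below the middle of the distribution, from 0.406 FPKM for *Or10d3* to 3.32 for *Or6s1*.

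The question of the design was whether sleep restriction changed transcript levels, and for these receptors no difference passed. None of the 8 members was called by limma at an adjusted p under 0.05, where 25 of 5657 transcripts (0.442%) were called, and none of the 8 had an unadjusted p under 0.05, against 13.2% of all tested, a share that would give about 1 of 8. Differences are CSR minus control, as means of log2(FPKM + 1); the added 1 shrinks the change of transcripts as low as these. Since the members passed the same level filter that the test uses, their counts support nothing beyond their own values. In bulk tissue, fewer cells of a type and less RNA per cell cannot be told apart.

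The largest positive difference was that of *Or4e1*, at 3.26 ± 0.461 FPKM under CSR against 2.02 ± 1.36 in the controls (SD, n = 3 each). Its log2 difference was 0.62 with a 95% interval from -0.38 to 1.61 (limma, adjusted p = 0.468). Without control library 1 it was 0.16 (limma, adjusted p = 0.765), so the difference rested largely on that library. *Or6s1* had 3.70 ± 0.388 FPKM under CSR against 2.95 ± 0.552 in the controls, a log2 difference of 0.26 with an interval from -0.18 to 0.69 (limma, adjusted p = 0.480), which was 0.17 without control library 3. *Or1f20*, at 0.981 ± 0.701 and 0.873 ± 0.654 FPKM, had a log2 difference of 0.08, between -0.97 and 1.14, and its sign turned when CSR library 1, CSR library 3 or control library 1 was left out.

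The other 5 members had negative differences, although that of *Or8s10* was 0.08 with quantile normalization. *Or5h18* had 0.782 ± 0.461 FPKM under CSR against 1.52 ± 0.921 in the controls, a log2 difference of -0.47 with an interval from -1.32 to 0.38 (limma, adjusted p = 0.503). Without control library 1 it was -0.19. *Or10al5b* had 1.16 ± 0.300 and 1.83 ± 0.661 FPKM, a log2 difference of -0.37 between -1.02 and 0.28 (limma, adjusted p = 0.493). Without control library 1 it was -0.23, and without control library 3 it was -0.57. For *Or2y14*, with 0.912 ± 0.602 against 1.27 ± 0.0995 FPKM, the log2 difference was -0.30 and shrank to -0.02 without CSR library 1. *Or8s10* had 0.691 ± 0.466 and 1.06 ± 0.334 FPKM with a log2 difference of -0.31, which shrank to -0.10 without CSR library 2. *Or8b3*, at 3.12 ± 0.380 and 3.50 ± 0.630 FPKM, differed by -0.12 on the log2 scale, with the interval from -0.56 to 0.32, and by -0.02 without control library 3.

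These intervals show what the 6 libraries can resolve. For *Or6s1* and *Or8b3* they exclude a log2 difference of 1 in either direction, on the log2(FPKM + 1) scale. For *Or4e1*, *Or5h18*, *Or1f20*, *Or2y14*, *Or8s10* and *Or10al5b* they include a difference of 1 in one direction, so a change of that size was not excluded there. The median log2 difference of the 8 was -0.21, beside -0.06 over all tested transcripts. An exact permutation test over the 20 assignments of the libraries gave two-sided p-values from 0.2 to 0.7, and it cannot go below 0.1 with 3 against 3.

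**Figure D4:**
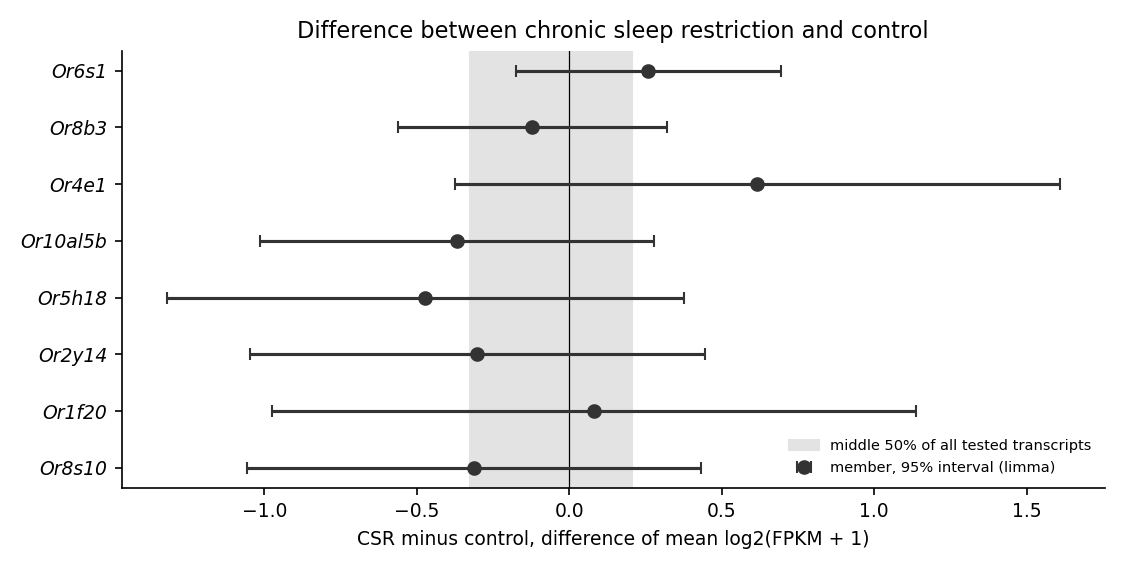
Points are the CSR minus control differences of mean log2(FPKM + 1) with 95% intervals from limma, and the grey band is the middle 50% of all 5657 tested transcripts. Every interval spans 0; that of *Or6s1* runs from -0.18 to 0.69 and that of *Or4e1* from -0.38 to 1.61.

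**Figure D5:**
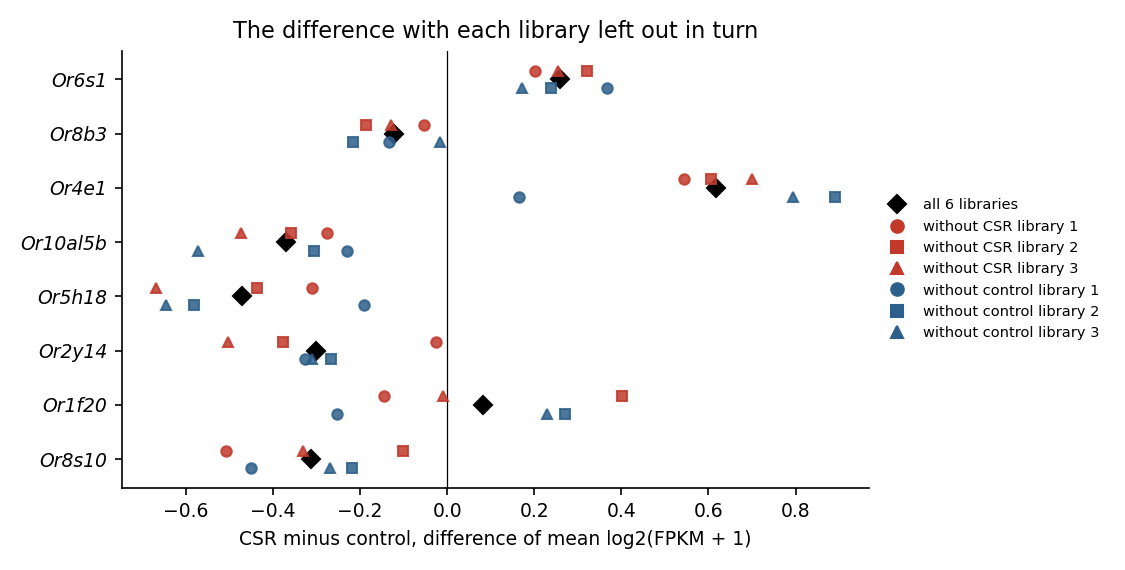
The same difference with all 6 libraries (black diamonds) and with each library left out in turn (red for a CSR library, blue for a control library). *Or4e1* drops from 0.62 to 0.16 without control library 1, and *Or2y14* moves from -0.30 to -0.02 without CSR library 1.

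Pairs of members varied in both directions. Of the 28 pairs among them, 9 had a positive and 19 a negative Pearson r of log2(FPKM + 1) over the 6 libraries, from -0.92 for *Or5h18* with *Or4e1* to 0.88 for *Or10al5b* with *Or5h18*. With 6 libraries in 2 groups these values are a description, and control library 1, where *Or4e1* was lowest and *Or5h18* and *Or10al5b* highest, weighs in each of them. Summed over the 8, the level was 14.8, 13.4 and 15.7 FPKM under CSR against 14.4, 15.9 and 14.8 in the controls, with overlapping groups.

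For 6 of the 8 members, the within-group SD was below the median of tested transcripts at their level. An even split around the median would be ordinary, and the departure from it was not tested. Tested transcripts also include some listed at 0 in several libraries, which no member was. The part of such zeros in the medians was not tested. For *Or6s1* the within-group SD was 0.16 on the log2 scale, against a median of 0.28 over 663 tested transcripts of like level (within 0.25 log2). For *Or8b3* it was 0.17 against 0.28, and for *Or10al5b* 0.29 against 0.58. *Or4e1*, with 0.57 against 0.39, and *Or1f20*, with 0.57 against 0.54, were the members above the median of their level.

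For the 3 highest members, the transcripts with the most similar pattern over the 6 libraries were named by Pearson r. They are the top of a ranking of 5657 tested transcripts, and over 6 libraries unrelated transcripts can also reach a high r. The names are therefore a description and do not show shared regulation. Those nearest to *Or4e1* were *Sin3b* (r = 0.99), a scaffold of histone deacetylase complexes, *Actl9* (r = 0.99), an actin-like protein of sperm, and *Gorasp2* (r = 0.98), a Golgi stacking protein. *Sin3b* read 42.6, 43.0 and 36.6 FPKM under CSR against 6.70, 38.3 and 34.5 in the controls. *Gorasp2* read 21.7, 19.9 and 19.1 FPKM under CSR against 2.65, 21.0 and 18.8 in the controls. Both repeat the low value of *Or4e1* in control library 1, and 111 tested transcripts had an r above 0.9 with it.

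The transcripts nearest to *Or6s1* were *Ppm1b* (r = 0.94), *Nkapl* (r = 0.94) and *Retsat* (r = 0.94). *Nkapl*, a germ cell gene, read 17.4, 15.0 and 15.1 FPKM under CSR against 17.4, 5.41 and 2.98 in the controls. Like *Or6s1* it was lowest in control libraries 2 and 3, but by a much larger factor. Nearest to *Or8b3* were *Akap14* (r = 0.97), an anchor of protein kinase A found in flagella, *Ercc2* (r = 0.95), a helicase of DNA repair, and *Pstk* (r = 0.94). *Akap14* read 6.80, 8.51 and 8.13 FPKM under CSR against 8.99, 7.99 and 11.1 in the controls. *Or6s1* had 18 transcripts above an r of 0.9 and *Or8b3* had 9, among 5657 tested. How many unrelated transcripts would pass that r over so few libraries was not counted, so these numbers are a description.

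Most of the gene models shared features. All 7 windows found open with the start codon, as do 97.1% of 1086 receptor windows but 9.0% of 33469 windows of all genes. In GRCr8 the curated models of these 7 thus begin at the coding sequence and hold no leader. Whether the authors' per-length values, which rest on rn6, used the same lengths was not examined. Another shared feature was a predicted transcript besides the curated one, with a gene span longer than the coding exon: 6 of 8 members have one, all but *Or8b3* and *Or6s1*, against 10.1% of 1226 receptor genes. Their spans run from 11453 bases for *Or4e1* to 57463 for *Or1f20*, while the median span of receptor genes is 942. RefSeq predictions rest in part on transcript evidence, whose source was not examined. Neither *Or8c18* nor *Or10d3* has a predicted transcript.

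Older names mark some of these genes. *Or1f20* has the synonym tpcr13 and *Or8c18* has tpcr19, of a series of receptor names of which 10 are in the RefSeq table. These 2 of the 10 had a row, beside 0.816% of 1226 receptor genes with a curated transcript. Of the members, *Or4e1* and *Or6s1* lie on chromosome 15, *Or1f20* and *Or2y14* on 10, and the others on 7, 8, 11 and 20. None of the 74 receptor genes flanking the members (up to 5 on each side on the same chromosome) had a row. Further out, *Or8c18* was the nearest row before *Or8b3* on chromosome 8, with 9 genes between.

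Neighbouring genes give the surroundings of each member. For 5 members the RefSeq span overlaps 1 other gene each. *Or2y14* overlaps *Or2y1* on the same strand, and *Or10al5b* overlaps *Or2g25* on the opposite strand. *Or1f20* overlaps *Or1f20b*, *Or5h18* overlaps the pseudogene *Or5h19-ps1*, and *Or8s10* overlaps *LOC120094029*, which is not a receptor gene. None of these 5 overlapping genes had a row, and few receptor genes have one (0.816% of 1226 with a curated transcript). The gene just before *Or8s10*, with no gene between and on the same strand, is the long noncoding RNA *C7h12orf54*, which read 431, 346 and 381 FPKM under CSR against 303, 317 and 397 in the controls. *Or8s10*, at 0.878 FPKM, thus lies beside a transcript with a mean of 362 FPKM. Over the 6 libraries the r of this pair was 0.25, and the part of the neighbour in its value was not tested. Around *Or6s1*, the nearest genes with rows were *Apex1*, a DNA repair endonuclease, at 25.5 to 35.1 FPKM with 13 genes between, and *Rnase4*, a secreted ribonuclease, at 2.38 to 3.88 FPKM with 6 between.

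Upstream sequence was searched for short motifs in the 250 bases before the start codon, on both strands. For genes with an upstream exon this window is not the promoter, and a match is a description only. TGACG, the short form of the cyclic AMP response element that the spermatid activator Crem binds, was in 3 of 7 member windows, against 4.70% of receptor windows and 18.2% of all windows. The motif holds a CpG, and the median number of CpGs was 4 in member windows, 1 in receptor windows and 5 in all windows. The part of this composition in the count was not tested. The 3 stretches are shown with the match in capitals, CGTCA being the reverse complement.
Or6s1, chr15:26766229-26766253, minus strand, 181 bases before the start codon: atgaagaagcCGTCAtcggtcaaga
Or2y14, chr10:34272280-34272304, plus strand, 89 bases before the start codon: caaagtgggaCGTCAactcctttca
Or8s10, chr7:131448215-131448239, plus strand, 125 bases before the start codon: caacctgacaTGACGttgttccaag

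The full element TGACGTCA was in 0 of 7 member windows and in 1.59% of all windows. The Sox motif ACAAT was in 4 of 7, against 57.6% of receptor windows and 30.0% of all windows. TATAAA was in 1 of 7 (*Or4e1*), against 36.4% of receptor windows, and the homeodomain motif TAATTA in 0 of 7, against 18.9%. The Myb motif AACTGNC, the GC box GGGCGG and the Olf1/EBF motif of olfactory neurons (TCCC, then any 2 bases, then GGGA) were in 0 of 7, against 10.2%, 0.921% and 0% of receptor windows. The member windows were 41.6% G and C by their median, against 34.0% in receptor windows and 51.2% in all, and held from 2 to 8 CpGs, with a median of 4 against 1 in receptor windows.

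Some genes of the odorant pathway had a row beside the receptors. Of 15 genes of the nasal cascade, 3 had a row and 1 was tested. Over all protein-coding genes with a curated transcript 35.6% had a row, a share to set beside this count and those of the lists below. The rule for rows is unknown, so a missing row does not show that a transcript was absent. *Gnal*, the G protein subunit to which these receptors couple in the nose, read 0.264, 1.07 and 0.281 FPKM in the controls, and every CSR library listed it at 0, where zeros were more frequent over the whole table (above). *Slc12a2*, a chloride cotransporter, read 2.78, 0 and 1.23 FPKM under CSR against 3.75, 3.54 and 2.43 in the controls and did not pass (limma, adjusted p = 0.392). *Ric8b*, an exchange factor that assists Gnal, was at 0 in CSR libraries 1 and 3 and at 1.58 FPKM or less elsewhere.

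Factors that carry receptors to the membrane or switch them off were more mixed. Of 10 chaperone genes, 4 had a row, all 4 were tested and none passed. *Reep6*, a membrane-shaping protein of the endoplasmic reticulum, was by far the highest, with 394, 745 and 766 FPKM under CSR against 267, 370 and 420 in the controls (limma, log2 difference 0.81, adjusted p = 0.367). *Reep1* had a mean of 12.6 FPKM, *Hspa1b* 6.97 and *Reep5* 1.81. Of 9 desensitization genes 4 had a row and 1 was tested: *Rgs2*, which quenches G protein signalling, read 0, 1.92 and 1.42 FPKM under CSR against 2.17, 1.89 and 1.67 in the controls (limma, adjusted p = 0.495). *Grk2*, a receptor kinase, stood at 0 in the 3 CSR libraries, and *Arrb2*, an arrestin, in 2 of them, with the same excess of zeros in those libraries.

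Genes of cyclic AMP and calcium signalling in sperm ranged widely in level. Of 20 such genes 12 had a row and 10 were tested; 3 had a positive and 7 a negative difference, none passed, and the median was -0.15. *Adcy10*, the soluble adenylyl cyclase of sperm, read 40.7, 45.4 and 43.8 FPKM under CSR against 46.6, 48.7 and 47.6 in the controls (limma, adjusted p = 0.440). *Catsper2*, a subunit of the sperm calcium channel, read 45.0, 32.9 and 32.0 FPKM under CSR against 50.8, 57.3 and 40.5 in the controls (limma, adjusted p = 0.378). Neither difference passed. For *Adcy10* every CSR library lay below every control library, a separation for which an exact permutation test gives no p below 0.1. The largest difference of the 10 went the other way. *Prkar2a* read 55.5, 49.7 and 62.9 FPKM under CSR against 18.5, 21.8 and 48.1 in the controls (limma, log2 difference 1.02, adjusted p = 0.363). Every CSR library of *Prkar2a* lay above every control library, and how often the groups separate so over all transcripts was not counted. The calmodulin gene *Calm3* had a mean of 157 FPKM, *Calm2* one of 58.7 and the anchoring protein *Akap3* one of 49.9. At the low end, *Catsperd*, a subunit of the sperm calcium channel, had a mean of 1.78 FPKM and the kinase subunit *Prkaca* 0.659.

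Receptors of another chemosensory family were present at levels like those of the members. Of 17 other chemosensory genes 3 had a row, all trace amine-associated receptors. *Taar4* read 2.78, 3.49 and 3.12 FPKM under CSR against 1.02, 1.07 and 0.271 in the controls, so that every CSR library lay above every control library. Its log2 difference of 1.24 (standard error 0.26) did not pass (limma, adjusted p = 0.186). With 3 against 3 libraries an exact permutation test of such a separation gives no p below 0.1. How often the groups separate so over all transcripts was not counted. *Taar1* read 1.54, 1.07 and 2.46 FPKM under CSR against 1.66, 1.11 and 1.20 in the controls, with overlapping groups. *Taar3* was under the level filter, with 1.26, 0.669 and 1.32 FPKM under CSR against 0.578, 0.349 and 0.219 in the controls. Of 13 regulators of receptor choice in the nose, 4 had a row and none of the 3 tested passed; *Ehmt2*, a histone methyltransferase, had a mean of 6.12 FPKM, *Rad21* 4.27, *Ctcf* 1.64 and *Ldb1* 0.783.

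Markers bear on the tissue behind these values. Of 16 genes that mark olfactory sensory neurons, 2 had a row: *Gnal*, above, and *Uchl1*, which also marks spermatogonia, with a mean of 28.2 FPKM. The other 14, the olfactory marker protein gene *Omp* among them, were not analysed here. Germ cell markers were uneven. *Tnp1*, which packs spermatid chromatin, lay at 3903 to 7730 FPKM and *Acrv1*, an acrosomal protein, at 94.9 to 119 FPKM. The protamine gene *Prm1*, by contrast, read 3029, 2572 and 968 FPKM under CSR against 0.0934, 0.0981 and 877 in the controls, and *Izumo1*, a sperm fusion protein, 26.8, 28.1 and 32.2 against 1.06, 0.482 and 30.7. Both were thus low in control libraries 1 and 2 alone. *Dazl*, a spermatogonial RNA-binding protein, reached at most 2.22 FPKM in any library. The summed level of 9 elongating spermatid genes ran from 19894 to 23284 FPKM in CSR and from 12424 to 21924 in control, and that of 11 round spermatid genes from 641 to 749 and from 551 to 684. Of 6 Sertoli cell genes the sum ran from 68.3 to 70.7 FPKM in CSR and from 75.1 to 82.7 in control, and of 6 Leydig cell genes from 80.5 to 131 and from 82.4 to 104. Most of the gap in the Sertoli sums came from *Ctsl*, with means of 31.2 FPKM in CSR and 40.4 in control. *Cldn11* had 20.1 and 20.8 and *Inha* 11.3 and 11.1, and of the 6 genes 2 had a positive and 4 a negative log2 difference. Of the tested marker rows, 1 of 4 for spermatocytes (*Ccna1*, a meiotic cyclin; limma, adjusted p = 0.0421) and 1 of 12 for round spermatids (*Eqtn*, an acrosomal membrane protein; adjusted p = 0.0269) were higher under CSR, and 1 of 8 for peritubular and stromal cells (*Col1a1*, a collagen; adjusted p = 0.0421) was lower. That last call rests on zeros: *Col1a1* was listed at 0 in every CSR library and read 2.14 to 2.73 FPKM in the controls. None passed among 2 for spermatogonia, 10 for elongating spermatids, 6 each for Sertoli and Leydig cells and 2 for macrophages and blood. Over all tested transcripts 0.442% were called, and that count changed with the processing (below). The 12 round spermatid rows held 8 positive and 4 negative differences, and the 4 spermatocyte rows only positive ones. The 8 peritubular and stromal rows held 1 positive and 7 negative differences. The part of these differences in the receptor values, and which cells of the testis carried the receptor transcripts, was not tested.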

How the data were processed

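Polyadenylated RNA from rat testis was measured by sequencing in 3 CSR and 3 control libraries, grouped by the sample titles. The authors deposited FPKM values per RefSeq transcript, per the file headers; Trimmomatic, HISAT2, StringTie and rn6 are named in the submitters' processing notes, while versions, settings and read depth are not stated there. The RRBS tables were not used, because no rn6 annotation was used to place CpGs at these genes. Of 7016 accessions, 6911 matched a symbol in the RefSeq table of GRCr8, which also gave gene order and sequences. The 5657 transcripts that reached 1 FPKM in 3 or more libraries entered limma 3.58.1 (R 4.3.3; mean-variance trend) on log2(FPKM + 1), with Benjamini-Hochberg adjustment over all of them and a threshold of 0.05; the fit was tested on simulated data. The members, gene lists, motifs and tests were chosen with earlier results of these data known. Named genes are the members, the other receptor rows, up to 4 genes of highest mean per pathway list and any past the threshold, the nearest genes with a row, and the 3 transcripts most like each of the 3 highest members. A gene that this rule would name is not reported here. The comparison of coding starts and of spans, and *Adcy10*, *Catsper2*, *Prkar2a*, *Catsperd*, *Prkaca*, *Tnp1*, *Acrv1*, *Prm1*, *Izumo1*, *Dazl*, *Ctsl*, *Cldn11* and *Inha*, were chosen after values were seen. Alternatives in pseudocount, filter, scaling, model and left-out libraries are given at the end.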

Additional observations from a re-analysis of the deposited data

How the results depend on the processing

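Under 17 alternatives 0 of the 8 receptors were called by limma; the lowest adjusted p of any was 0.227, for *Or10al5b* without control library 3, and the smallest unadjusted p in the fit reported above was 0.180. The difference kept its sign in 129 of 134 recomputed values. *Or1f20* turned to -0.0374 with control libraries 1 and 2 averaged (their codes differ only in the last digit) and ranged from -0.25 to 0.40 with single libraries left out, and *Or8s10* turned to 0.0794 with quantile normalization; the cause was not tested. The 3 highest members were the same under 8 alternatives for the level. Scaling to equal totals moved the median log2 difference of all transcripts from -0.06 to -0.15.

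The count of called transcripts over the whole table, 25, became 11 with a pseudocount of 0.1, 54 with a filter of 0.5 FPKM, 13 with a filter on a mean of 1 FPKM, 77 without a trend and 7 with control libraries 1 and 2 averaged. With single libraries left out it ran from 4 (without control library 2) to 259 (without control library 3), with 0 of the 8 receptors among the calls each time. With a replicate block, pairing libraries by number, it was 0. Same-numbered libraries did not deviate together (r of 0.03, 0.01 and 0.04), so the numbers were not taken as pairs. Depth is unknown, so it cannot be said what a single read is worth at 1 FPKM.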
